A study of Homo sapiens with 6 samples.

Results

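The ZBTB, ZSCAN, ZKSCAN and ZFP genes are 4 groups of human zinc finger genes that share a naming stem rather than a single function. They were taken as all listed symbols that start with ZBTB, ZSCAN, ZKSCAN or ZFP followed by a digit, which gave 75 of the 13117 genes of the table, namely 38 ZBTB, 14 ZSCAN, 7 ZKSCAN and 16 ZFP genes. The stem also takes in ZBTB8OS, which is named for lying on the strand opposite ZBTB8A and encodes the tRNA ligase cofactor archease, not a zinc finger protein. It takes in 3 ZFP36 genes as well, whose fingers bind RNA. RNA-seq libraries came from SNU449, an established human hepatocellular carcinoma line carrying FOXO1AAA in the doxycycline-inducible vector pInducer20. There were 3 libraries of cells given 2 µM doxycycline hydrochloride for 48 h (Dox) and 3 of cells cultured without it (Cont). FOXO1AAA is a form of the transcription factor FOXO1 that lacks the sites phosphorylated by the kinase AKT. The genotype is labelled WT, every cell of both groups carried the construct, and no library had doxycycline without it. Effects of doxycycline and of FOXO1AAA cannot be told apart. Separate cultures are not stated for the libraries, so the spread behind each p-value may be technical only.

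ZBTB proteins join a BTB domain, through which they pair and recruit corepressors such as NCOR and BCOR, to zinc fingers that bind DNA. ZSCAN proteins carry a SCAN domain, a vertebrate module through which zinc finger proteins pair with each other, and most ZKSCAN proteins add a KRAB domain, which recruits the corepressor TRIM28 and the histone methyltransferase SETDB1. Most ZFP genes encode DNA-binding zinc finger proteins, many with a KRAB domain. The proteins ZFP36, ZFP36L1 and ZFP36L2 instead bind AU-rich elements of mRNAs and bring in the deadenylase complex CCR4-NOT.

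Values are FPKM, fragments scaled by transcript length and by mapped reads, recovered from the deposited log2 values. Relative depth, read from the spacing of the lowest values, was 0.872 to 1.31 in Dox and 0.790 to 1.16 in Cont. FOXO1 itself was at 2.79 ± 0.748 FPKM in Dox and 0.802 ± 0.0777 FPKM in Cont (SD, n = 3 each), and whether reads of the construct were counted there cannot be told from the table. Mitochondrially encoded genes took 13.2% to 14.7% of the summed FPKM in Dox and 3.00% to 4.67% in Cont, and their part in the values below was not tested, apart from the rescaling without them. Of 12 hepatocyte markers 4 were listed, with summed levels of 13.6 to 19.1 FPKM in Dox and 146 to 210 FPKM in Cont. Most of the Cont sum was FGB, and FGB (log2 change -4.16), FGA (-1.65) and AFP (-0.95) were lower in Dox. FGA passed the filter of 1 FPKM in 3 libraries only through its Cont libraries, so it had to differ. Albumin, the defining marker, was not tested and was at 1.19 ± 0.459 FPKM in Dox and 0.321 ± 0.239 FPKM in Cont (SD, n = 3 each). All 6 mesenchymal markers were listed, with sums of 478 to 549 FPKM in Dox and 1241 to 1288 FPKM in Cont. Of these 3 were lower (VIM, TGFBI and CDH2, with VIM most of the sum) and 3 higher (FN1, ZEB1 and SPARC). Of 6 endothelial markers 2 were listed, with sums of 0.528 to 0.975 FPKM in Dox and 0.306 to 0.401 FPKM in Cont, and 0 of 6 immune cell markers were among the genes analysed.

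Most members were expressed at low or moderate levels. Mean FPKM was at least 20 for 13 members in Dox and 10 in Cont, and below 1 for 4 members in Dox and 8 in Cont. The order of the top members differed between the groups. In Dox, ZKSCAN8 ranked first with a mean of 115 FPKM (89.8 to 129), followed by ZFP90 with 81.1 (77.6 to 83.5) and ZFP30 with 52.5 (50.3 to 56.1). In Cont, the first was ZFP36L1 with 81.8 FPKM (72.1 to 87.3), followed by ZBTB8OS with 74.6 (68.1 to 82.3), ZFP90 with 70.6 (67.8 to 75.7) and ZBTB38 with 54.6 (52.4 to 58.3). The ranges of ZFP36L1, ZBTB8OS and ZFP90 in Cont overlapped, so the order among these 3 is not fixed by the data. ZKSCAN8 stood in place 13 in Cont, with 17.9 FPKM. The summed level of the ZKSCAN genes was 119 to 162 FPKM in Dox and 39.8 to 44.2 FPKM in Cont. ZKSCAN8 alone held 89.8 to 129 FPKM of it in Dox and 17.1 to 18.7 FPKM in Cont. The ZSCAN genes summed to 103 to 114 FPKM in Dox and 69.8 to 72.4 FPKM in Cont. ZSCAN26 alone held 26.9 to 32.8 FPKM of that sum in Dox and 2.59 to 3.05 FPKM in Cont. Most of the difference in each sum came from these genes. The ZBTB genes summed to 432 to 444 FPKM in Dox and 461 to 486 FPKM in Cont, and without the archease gene ZBTB8OS to 386 to 394 FPKM in Dox and 388 to 407 FPKM in Cont, ranges that overlap.

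Of the 75 members, 69 were tested, having reached 1 FPKM in 3 libraries or more. In Dox, 30 were higher and 17 lower than in Cont at a limma adjusted p under 0.05, and 22 did not pass the threshold. Over all 11526 tested genes, 80.4% were called, 37.6% higher and 42.8% lower, against 68.1% of the members, 43.5% higher and 24.6% lower. The 404 tested genes with a ZNF number in place of these stems are the closest comparison, and 66.1% of them were called, 39.1% higher and 27.0% lower. The members' shares therefore lay near those of other zinc finger genes, and no test of the difference was made. The median log2 change was 0.10 over the tested members, 0.11 over the ZNF genes and -0.06 over all tested genes. Without Dox replicate 3 the median over the members was 0.02. A log2 change of at least 1 on the log2(FPKM + 1) scale was seen in 7 members that rose and 3 that fell, against a background of 16.3% and 16.6% of all tested genes.

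The balance of directions depended on scaling. Leaving the mitochondrially encoded genes out and rescaling to TPM moved the median of all tested genes to 0.19 in log2, against -0.06 before, and the share of higher calls among all calls to 59.0%, against 46.7% before. Under that scaling 38 members were higher and 12 lower. Quantile normalization gave 24 higher and 22 lower. Some log2 changes smaller than the move of the median changed sign with the scaling, such as that of ZBTB25 (-0.27 to 0.01 over the alternatives fitted). Others kept their sign, such as that of ZFP90 (0.17 to 0.48).

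**Figure D1:**
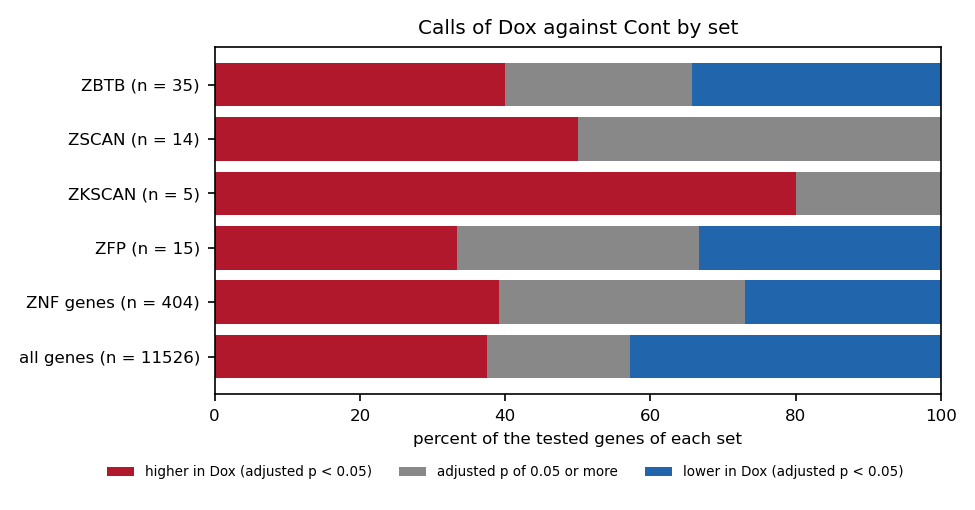
Percent of the tested genes of each set (x axis) that were higher in Dox, not past the threshold, or lower in Dox, for the 4 stems, the ZNF genes and all tested genes. The ZSCAN and ZKSCAN bars hold no gene lower in Dox, while the ZBTB and ZFP bars hold both directions.

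The stems differed in their counts. Over all tested genes 37.6% were higher and 42.8% lower, so calls in both directions are not particular to a stem. ZBTB genes had 14 of 35 tested higher (40.0%), 12 lower (34.3%) and 9 not past the threshold (median log2 change -0.05). ZSCAN genes had 7 of 14 higher (50%), 0 lower and 7 not past it (median 0.23). ZKSCAN genes had 4 of 5 higher (80%), 0 lower and 1 not past it (median 0.52). ZFP genes had 5 of 15 higher (33.3%), 5 lower (33.3%) and 5 not past it (median 0.07). The 5 higher ZFP genes include ZFP14, which passed the filter only through its Dox libraries. The counts of 0 lower come from limma after adjustment. At an unadjusted p under 0.05, 1 ZSCAN and 0 ZKSCAN genes were lower, and after adjustment 1 or 2 ZSCAN genes were lower in some other limma fits. The ZSCAN gene called lower in most of these, ZSCAN12, was at 1.23 ± 0.188 FPKM in Dox and 1.73 ± 0.303 FPKM in Cont (SD, n = 3 each; limma adjusted p = 0.0559). Without Dox replicate 3, 4 ZSCAN genes were higher. The differences between the stems were not tested.

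**Figure D2:**
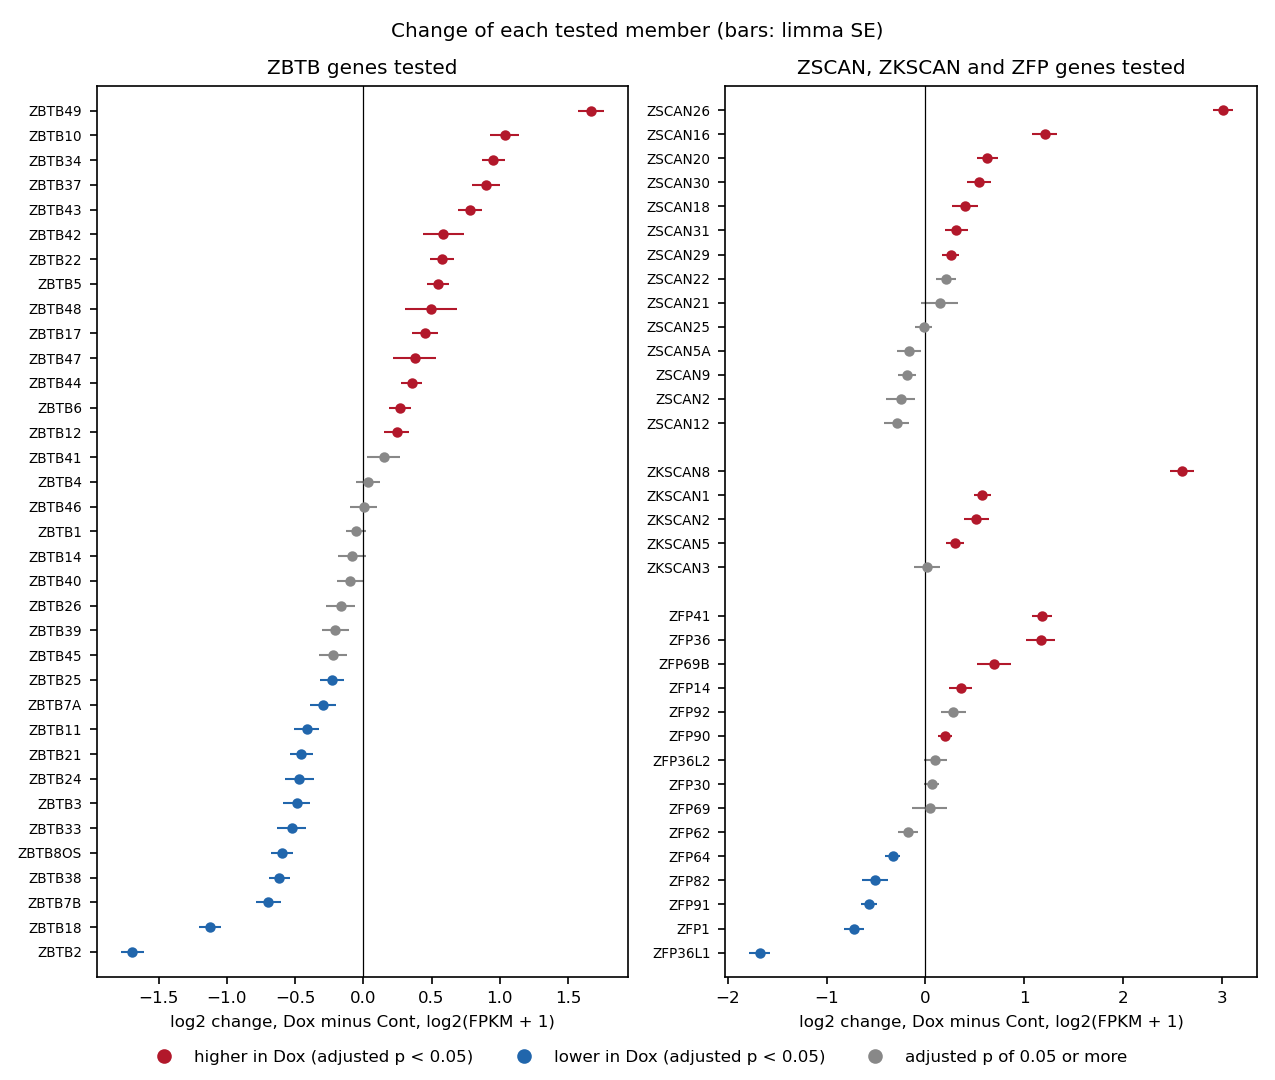
Log2 change of each of the 69 tested members (x axis, Dox minus Cont, from FPKM with a pseudocount of 1) with limma's standard error as bars. The changes run from -1.70 for ZBTB2 to 3.02 for ZSCAN26, and most lie within 1 log2 unit of 0.

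The 2 largest rises belonged to SCAN domain genes of chromosome 6. ZSCAN26 (chromosome 6, 28267010 to 28278224, GRCh38) was at 32.8, 31.8 and 26.9 FPKM in the Dox libraries and at 2.59, 3.05 and 3.02 FPKM in the Cont libraries. Every Dox value lay far above every Cont value. The means were 30.5 ± 3.15 FPKM in Dox and 2.88 ± 0.257 FPKM in Cont (SD, n = 3 each), a 10.6-fold difference (log2 change 3.02, SE 0.10, limma adjusted p = 4.64e-09).

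ZKSCAN8 (chromosome 6, 28141910 to 28159472) was at 126, 129 and 89.8 FPKM in the Dox libraries and at 17.1, 17.8 and 18.7 FPKM in the Cont libraries. The third Dox library was lower than the other two, and the groups did not overlap. The difference was 6.42-fold (log2 change 2.60, SE 0.13, limma adjusted p = 4.67e-08). ZSCAN16 (chromosome 6, 28124560 to 28130082) was at 8.44, 9.01 and 8.42 FPKM in Dox and at 4.04, 2.72 and 2.86 FPKM in Cont, also without overlap (log2 change 1.21, SE 0.12, limma adjusted p = 8.79e-06). The first Cont library was the highest of its group. Of the 50-base words of the longest ZSCAN16 transcript, 11.7% also occur in its antisense gene ZSCAN16-AS1, and no source used here states whether strand was used in counting.

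These genes lie in a group of 8 members within 275 kb, the group with the most members when members no more than 1000000 bases apart are joined. The other genes of the group changed by less or did not pass the threshold. ZSCAN9, between ZKSCAN8 and ZSCAN26, was at 19.2 ± 2.13 FPKM in Dox and 21.9 ± 1.21 FPKM in Cont (SD, n = 3 each; limma adjusted p = 0.0826). Without Dox replicate 1 it was called lower (-0.27, limma adjusted p = 0.0186). ZKSCAN3, known as a transcriptional repressor of autophagy genes, was at 5.06 ± 0.771 FPKM in Dox and 5.00 ± 0.934 FPKM in Cont (limma adjusted p = 0.906). ZSCAN31 rose by 0.31 in log2 (limma adjusted p = 0.0309), a call that ended under quantile normalization (0.14, limma adjusted p = 0.325) and without Dox replicate 1 (0.071) or 3 (0.102) or Cont replicate 2 (0.119) or 3 (0.0721). The SCAN domain gene PGBD1 of the same interval, whose SCAN domain is joined to a transposase-derived one, rose by 0.65 in log2 (limma adjusted p = 0.000376). ZKSCAN4 was not tested and had 1.26, 1.74 and 0.941 FPKM in Dox and 0.821, 0.807 and 0.829 FPKM in Cont. It shares 9.07% of its 50-base words with other genes, nearly all with ZKSCAN3, so its value is uncertain.

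**Figure D3:**
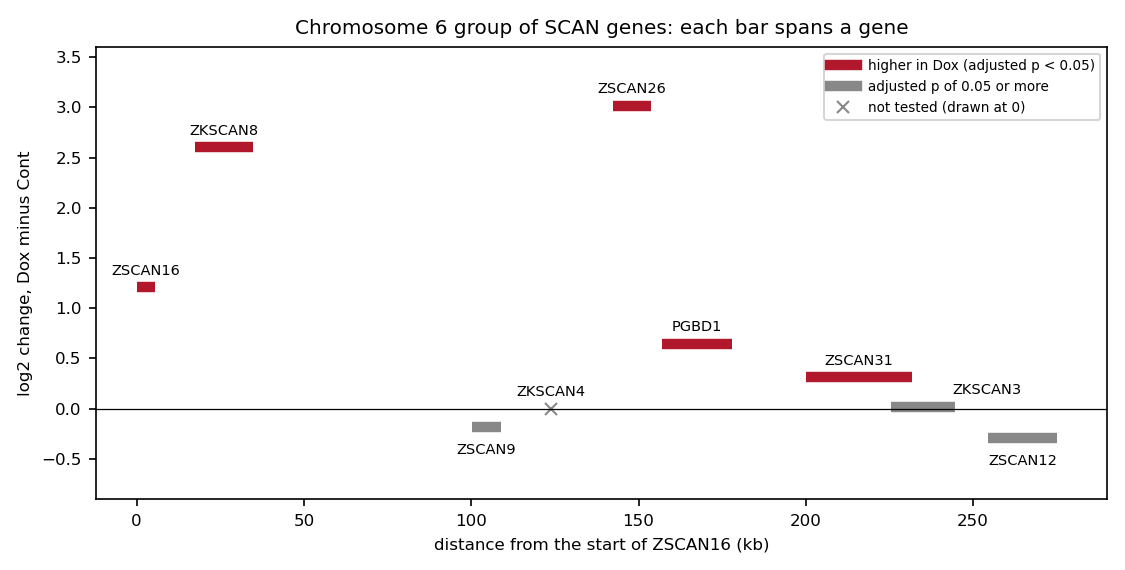
Log2 change, Dox minus Cont (y axis), of the 8 members and PGBD1 in the chromosome 6 group against distance from the start of ZSCAN16 in kb (x axis), each bar spanning 1 gene and ZKSCAN4, not tested, drawn as a cross at 0. ZKSCAN8 (2.60) and ZSCAN26 (3.02) stand above ZSCAN9 (-0.19), which lies between them.

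The other SCAN domain members changed by less. ZSCAN20 was at 2.31, 2.12 and 2.37 FPKM in Dox and at 1.19, 0.989 and 1.17 FPKM in Cont (log2 change 0.63, limma adjusted p = 0.000309). Because its level is low, the same test on the deposited log2 values gave 1.03. ZSCAN30 was at 5.83, 4.11 and 5.42 FPKM in Dox and at 3.36, 3.16 and 3.00 FPKM in Cont (log2 change 0.54, limma adjusted p = 0.00222). Both rises had no overlap between the groups.

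ZKSCAN1, the host gene of a circular RNA known in liver that cannot be told from the linear mRNA here, was at 14.1, 14.6 and 12.7 FPKM in Dox and at 9.19, 8.42 and 9.12 FPKM in Cont. It rose by 0.58 in log2 (SE 0.09, limma adjusted p = 0.000129). ZKSCAN2 rose by 0.52 (limma adjusted p = 0.00352; 0.78 on the deposited log2 values) but not under quantile normalization (0.25, limma adjusted p = 0.0952). ZKSCAN5 rose by 0.30 (limma adjusted p = 0.012), with an adjusted p of 0.0515 by limma without Cont replicate 1.

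The smaller ZSCAN rises were less firm. ZSCAN18 rose by 0.40 (limma adjusted p = 0.0174), but 36.3% of the 50-base words of its longest transcript also occur in other genes. Nearly all of these are in ZNF135, whose exons overlap those of ZSCAN18 on the opposite strand. The ZSCAN18 call ended under quantile normalization (limma adjusted p = 0.0707) and without Dox replicate 3 (0.0625) or Cont replicate 1 (0.0711). ZSCAN29 rose by 0.26 (limma adjusted p = 0.0214), a call that ended without Dox replicate 3 (0.0571), Cont replicate 1 (0.0701) or Cont replicate 2 (0.0581).

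The remaining ZSCAN genes did not pass the threshold. ZSCAN22 had 2.30 ± 0.117 FPKM in Dox and 1.86 ± 0.142 FPKM in Cont (SD, n = 3 each; limma adjusted p = 0.0825). ZSCAN25 had 5.98 ± 0.281 FPKM in Dox and 6.06 ± 0.126 FPKM in Cont, and ZSCAN5A had 1.52 ± 0.322 FPKM in Dox and 1.81 ± 0.0542 FPKM in Cont. ZSCAN5A shares 11.7% of its 50-base words with other genes, among them ZSCAN5C (9.19%). ZSCAN21 and ZSCAN2 varied among the Dox libraries: ZSCAN21 was at 1.78, 3.34 and 3.79 FPKM in Dox and at 2.78, 2.29 and 2.43 FPKM in Cont. ZSCAN2 was at 12.9, 7.89 and 8.58 FPKM in Dox and at 11.3, 11.7 and 11.8 FPKM in Cont. For both genes the first Dox library stood apart from the other two, and without it each passed the threshold, ZSCAN21 as higher and ZSCAN2 as lower. They share 42.5% and 33.8% of their 50-base words with other annotated genes, ZNF3 for ZSCAN21 and mostly AC048382.6 for ZSCAN2. Exons of ZNF3 and AC048382.6 overlap those of these genes on the opposite strand, and whether strand was used in counting is not known here.

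RefSeq promoter sequences (GRCh38.p14, 250 bases before to 50 after each start) matched 64 of the 75 members; the others are ZBTB10, ZBTB17, ZBTB6, ZBTB41, ZBTB40, ZSCAN26, ZSCAN16, ZKSCAN2, ZFP41, ZFP14 and ZFP36L2. CCGGAAG, the core read by ETS factors, was searched on either strand. It was found in 7 of 12 ZSCAN (58.3%) and 4 of 6 ZKSCAN promoters (66.7%), against 8 of 33 ZBTB (24.2%), 2 of 13 ZFP (15.4%), 40.8% of 380 ZNF and 18.6% of 10543 promoters of listed genes. This motif was added after the ZKSCAN8 sequence had been read, that promoter is among the 4, and the differences between stems were not tested. It was in 7 of 22 promoters of members that were higher (31.8%), 3 of 17 that were lower (17.6%) and 10 of 19 that did not pass the threshold (52.6%). The windows below are shown because they lie at the starts of SCAN domain genes that differed in response. They are written 5′ to 3′ on the gene's strand, with the motif or its reverse complement in capitals, for ZKSCAN8 (chr6:28141834-28141862, plus strand; its site reads on both strands), ZKSCAN3 (chr6:28349898-28349926, plus), ZSCAN9 (chr6:28225221-28225249, plus), ZSCAN12 (chr6:28399749-28399777, minus) and ZKSCAN1 (chr7:100015531-100015559, plus).
ZKSCAN8: ctagagagcttCCGGAAGtgcctttgggg
ZKSCAN3: gctagagaggcCCGGAAGtggcttctgtg
ZSCAN9: cctagaccggcCCGGAAGtgcctctgctc
ZSCAN12: ccccgtggccgCTTCCGGcctttgtgggt
ZKSCAN1: ctagagaggacCCGGAAGcgcggcgcggt
ZKSCAN8 and ZKSCAN1 rose, while ZKSCAN3, ZSCAN9 and ZSCAN12 did not pass the threshold. A match is a description of these letters and not of a bound factor.

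Among ZBTB genes, ZBTB49 rose by the most. Its protein is known to activate the cell cycle inhibitor gene CDKN1A together with p53. It lies on chromosome 4 (4290251 to 4321786) and was at 6.35, 6.30 and 6.10 FPKM in Dox and at 1.36, 1.36 and 1.13 FPKM in Cont. The libraries of each group were close together and the groups far apart, a 4.88-fold difference (log2 change 1.67, SE 0.10, limma adjusted p = 1.4e-07).

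ZBTB10, which competes with Sp factors for GC-rich sites, was at 29.4, 29.9 and 22.5 FPKM in Dox and at 12.7, 12.5 and 12.9 FPKM in Cont (log2 change 1.03, SE 0.11, limma adjusted p = 9.9e-06). The third Dox library was again the lowest of its group. The neighbours ZBTB34 and ZBTB43 on chromosome 9 lie within 80.9 kb and rose together, by 0.95 (limma adjusted p = 3.83e-06) and 0.78 (limma adjusted p = 1.52e-05). ZBTB34 was at 7.37, 6.81 and 7.15 FPKM in Dox and at 3.14, 3.33 and 3.09 FPKM in Cont. ZBTB43 was at 8.28, 7.89 and 8.43 FPKM in Dox and at 4.25, 4.64 and 4.15 FPKM in Cont. In another chromosome 9 pair, ZBTB6 rose by 0.27 (limma adjusted p = 0.0124; 0.0503 without Cont replicate 2) and ZBTB26 had 2.04 ± 0.195 FPKM in Dox and 2.42 ± 0.273 FPKM in Cont (SD, n = 3 each; limma adjusted p = 0.183).

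ZBTB37 was at 18.8, 17.4 and 16.8 FPKM in Dox and at 7.76, 9.06 and 10.3 FPKM in Cont (log2 change 0.90, limma adjusted p = 2.23e-05). ZBTB17, also called MIZ-1, the partner through which MYC represses CDK inhibitor genes, was at 35.2, 35.0 and 44.6 FPKM in Dox and at 27.2, 27.0 and 28.4 FPKM in Cont. It rose by 0.45 in log2 (SE 0.10, limma adjusted p = 0.00165). ZBTB5, a known repressor of CDKN1A, rose by 0.55 (limma adjusted p = 0.000159), and ZBTB22, a gene of the major histocompatibility region, by 0.58 (limma adjusted p = 0.000178).

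ZBTB42, a gene expressed in skeletal muscle, was at 3.11, 5.25 and 4.43 FPKM in Dox and at 2.29, 2.79 and 2.30 FPKM in Cont. It rose by 0.59 in log2 (limma adjusted p = 0.00521), and its Dox libraries were more spread than its Cont libraries. ZBTB44 rose by 0.36 (limma adjusted p = 0.00171).

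ZBTB48, known as TZAP, a protein that binds telomere repeats and trims long telomeres, was at 12.9, 18.3 and 12.8 FPKM in Dox and at 7.16, 12.3 and 11.2 FPKM in Cont. Its rise of 0.49 (limma adjusted p = 0.0357) ended without Dox replicate 2 (0.33, limma adjusted p = 0.131) or Cont replicate 1 (0.28, limma adjusted p = 0.12). The rises of ZBTB47 (0.38, limma adjusted p = 0.0484) and ZBTB12 (0.24, limma adjusted p = 0.036) were also near the threshold. Leaving out any 1 library ended the ZBTB12 call (limma adjusted p = 0.0555 to 0.117), and any but Dox replicate 1 ended that of ZBTB47 (0.0509 to 0.20). The Dox and Cont values of ZBTB47 overlapped, and its call also ended on the deposited log2 values (limma adjusted p = 0.0528).

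The greatest fall was that of ZBTB2, whose protein is known to repress CDKN1A and to antagonize p53. ZBTB2 (chromosome 6, 151364117 to 151391548) was at 2.69, 2.67 and 2.74 FPKM in Dox and at 11.4, 11.1 and 10.5 FPKM in Cont. The replicates were tight and the groups did not overlap, a 4.07-fold lower level in Dox (log2 change -1.70, SE 0.08, limma adjusted p = 5.28e-08). ZBTB18, also called RP58, a repressor known from neurons, was at 20.1, 22.4 and 24.1 FPKM in Dox and at 49.2, 51.7 and 47.8 FPKM in Cont (log2 change -1.13, SE 0.08, limma adjusted p = 6.69e-07).

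The 120 bases upstream of the RefSeq starts of ZBTB49 (chr4:4290131-4290250, plus strand) and ZBTB2 (chr6:151391560-151391679, minus strand) are shown because these genes had the largest rise and the largest fall of the ZBTB group. Neither stretch held the letters searched (the FOXO core TGTTTAC, the AP-1 letters TGACTCA, the E-box CACGTG or the ETS core CCGGAAG, each searched on both strands on its own), so no letters are in capitals. The wider ZBTB49 window searched did hold an E-box CACGTG, at -171 from the start and so outside the stretch shown.
ZBTB49: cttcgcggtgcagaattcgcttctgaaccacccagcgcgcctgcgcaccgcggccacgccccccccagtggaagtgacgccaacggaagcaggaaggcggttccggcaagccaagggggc
ZBTB2: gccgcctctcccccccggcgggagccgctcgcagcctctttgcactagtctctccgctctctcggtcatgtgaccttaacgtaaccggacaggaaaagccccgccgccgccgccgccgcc
The FOXO core TGTTTAC, or its reverse complement, was present in 3 of the 64 promoters matched (4.69%), all of ZBTB genes, against 2.21% of 10543 promoters of listed genes and 0.789% of the ZNF promoters. These were ZBTB42 (chr14:104801001-104801029, plus strand), ZBTB5 (chr9:37465616-37465644, minus) and ZBTB14 (chr18:5297176-5297204, minus), shown with the core in capitals because FOXO1AAA was the induced factor.
ZBTB42: ggagctgctacTGTTTACtttcgatcgag
ZBTB5: ttcagtcggtaGTAAACAcaaccagactt
ZBTB14: tatttcccaaaTGTTTACttaggtgcctg
ZBTB42 and ZBTB5 rose, and ZBTB14 was at 4.55 ± 0.338 FPKM in Dox and 4.88 ± 0.549 FPKM in Cont (SD, n = 3 each; limma adjusted p = 0.481). By call, the FOXO core was in 2 of 22 promoters of members that were higher, 0 of 17 that were lower and 1 of 19 that did not pass. These shares were not tested, and a match does not show a bound factor. The AP-1 letters TGACTCA were in 2 member promoters (3.12%, against 3.04% of listed genes) and the E-box CACGTG in 10 (15.6%, against 9.82%), of which 8 belonged to ZBTB genes.

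The methyl-CpG binding members fell or did not pass the threshold. ZBTB33, known as Kaiso, was at 3.18, 3.58 and 3.56 FPKM in Dox and at 4.62, 5.71 and 5.90 FPKM in Cont (log2 change -0.53, limma adjusted p = 0.00125). ZBTB38 was at 35.3, 37.4 and 33.1 FPKM in Dox and at 52.4, 53.0 and 58.3 FPKM in Cont (log2 change -0.62, limma adjusted p = 3.25e-05). ZBTB4 was at 14.7 ± 1.47 FPKM in Dox and 14.3 ± 0.472 FPKM in Cont (SD, n = 3 each; limma adjusted p = 0.731). The falls of ZBTB33 and ZBTB38 shrank to -0.33 (limma adjusted p = 0.0345) and -0.35 (limma adjusted p = 0.00374) in TPM with mitochondrially encoded genes left out.

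ZBTB7A and ZBTB7B, closely related repressors known from blood cell development, were both lower. ZBTB7B was at 9.46 ± 1.02 FPKM in Dox and 15.9 ± 0.903 FPKM in Cont (SD, n = 3 each; log2 change -0.70, limma adjusted p = 6.05e-05). ZBTB7A fell by 0.30 in log2 (limma adjusted p = 0.016), but not in TPM (limma adjusted p = 0.0921), nor without mitochondrially encoded genes (0.632), nor without Dox replicate 1 (0.0667). ZBTB24, mutated in an immunodeficiency with centromeric instability, was at 2.46, 2.21 and 2.18 FPKM in Dox and at 3.27, 4.05 and 3.36 FPKM in Cont (log2 change -0.47, limma adjusted p = 0.00227; -0.30 in TPM with mitochondrially encoded genes left out).

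Smaller falls were those of ZBTB3 (-0.49, limma adjusted p = 0.00111), ZBTB21 (-0.45, limma adjusted p = 0.000715) and ZBTB11 (-0.41, limma adjusted p = 0.00197). In TPM with mitochondrially encoded genes left out, ZBTB11 no longer passed (-0.19, limma adjusted p = 0.121), ZBTB3 was at -0.27 and ZBTB21 at -0.25. ZBTB25 fell by 0.23 (limma adjusted p = 0.0323) but was at 0.01 in TPM with mitochondrially encoded genes left out (limma adjusted p = 0.888) and did not pass in TPM (0.186) or without Dox replicate 2 (0.113), Cont replicate 1 (0.114) or Cont replicate 2 (0.0871). ZBTB8OS, the archease gene, fell by 0.60 (limma adjusted p = 8.49e-05; -0.32 in TPM with mitochondrially encoded genes left out).

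ZBTB32 and ZBTB46 are known from immune cells. ZBTB32, first known from lymphocytes, was not tested, with 0.621, 0.555 and 0.497 FPKM in Dox and 0.131, 0.0509 and 0.172 FPKM in Cont, an estimated 2.07 to 57.9 reads per library. ZBTB46, a marker of dendritic cells in mouse, had 2.11 ± 0.0906 FPKM in Dox and 2.11 ± 0.0931 FPKM in Cont (SD, n = 3 each; limma adjusted p = 0.988), yet was called lower under quantile normalization (-0.26, limma adjusted p = 0.0355).

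ZBTB20, which represses the alpha-fetoprotein gene in mouse liver, was not tested, with 1.08, 1.33 and 0.903 FPKM in Dox and 0.351, 0.378 and 0.421 FPKM in Cont. The groups did not overlap, and with no filter on low values its log2 change was 0.60 (limma adjusted p = 0.000339). Of the 50-base words of its longest transcript, 56.1% also occur in other annotated genes, nearly all in the gene model AC093010.3. With no filter ZBTB32 (0.48, limma adjusted p = 0.000471) and ZKSCAN4 (0.33, limma adjusted p = 0.0352) were called higher as well. The other members below the filter, ZBTB8A, ZKSCAN7 and ZFP37, had means of 0.674, 0.545 and 0.435 FPKM in Dox and 0.858, 0.582 and 0.58 FPKM in Cont, and were not called without it (limma adjusted p = 0.16, 0.827 and 0.145). ZBTB8A shares 28.6% of its 50-base words with other genes, mostly with the gene model AL033529.1.

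The ZBTB genes left did not pass the threshold. ZBTB1, needed for lymphoid development in mouse, was at 41.8 ± 0.647 FPKM in Dox and 43.5 ± 2.95 FPKM in Cont (SD, n = 3 each; limma adjusted p = 0.495). ZBTB40 was at 27.1 ± 3.25 FPKM in Dox and 29.1 ± 1.84 FPKM in Cont (limma adjusted p = 0.349). ZBTB41 had limma adjusted p = 0.273, ZBTB39 0.0785 and ZBTB45 0.0719. ZBTB41 was called higher without Cont replicate 3 (limma adjusted p = 0.0365), and ZBTB45 lower without Cont replicate 1 (limma adjusted p = 0.037). For ZBTB39 and ZBTB26 the groups did not overlap, with every Dox value below every Cont value, although neither passed; over all tested genes 82.1% had groups without overlap.

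**Figure D4:**
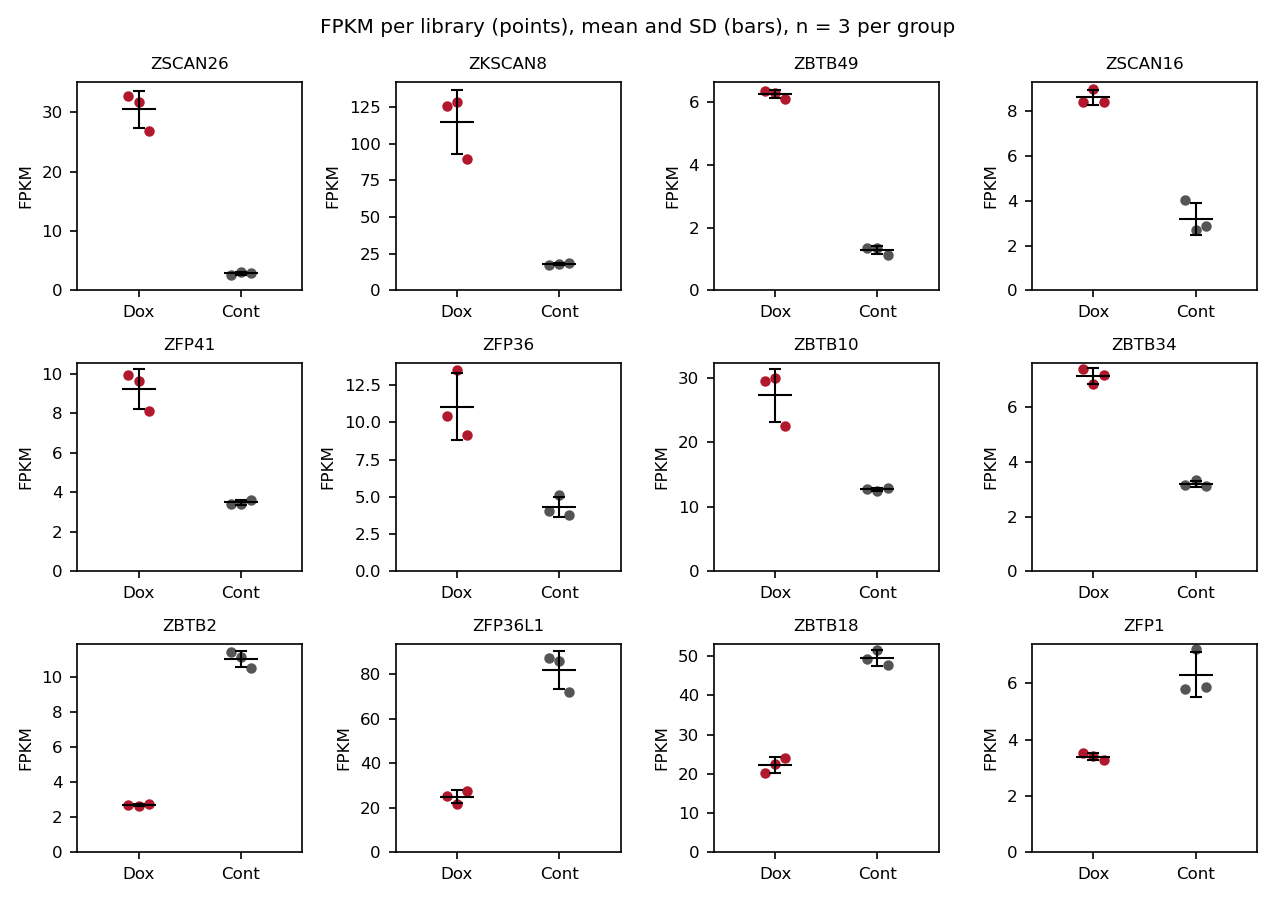
FPKM of 12 members (y axis, linear, from 0) in the 3 Dox and the 3 Cont libraries, with the mean and SD as bars. In the first 8 panels every Dox point lies above every Cont point, and in the last 4 (ZBTB2, ZFP36L1, ZBTB18 and ZFP1) every Dox point lies below.

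The ZFP36 genes went in different directions. ZFP36, the tristetraprolin gene, whose protein destabilizes cytokine and growth factor mRNAs, was at 10.4, 13.5 and 9.16 FPKM in Dox and at 4.06, 5.12 and 3.81 FPKM in Cont. It rose 2.55-fold (log2 change 1.17, SE 0.14, limma adjusted p = 3.52e-05). ZFP36L1 (chromosome 14, 68787660 to 68796253) was at 25.1, 21.8 and 27.7 FPKM in Dox and at 87.3, 85.9 and 72.1 FPKM in Cont, a 3.29-fold lower level in Dox (log2 change -1.68, SE 0.10, limma adjusted p = 2.32e-07). ZFP36L2 was at 7.72, 8.61 and 11.1 FPKM in Dox and at 8.26, 8.45 and 8.37 FPKM in Cont, with overlap (limma adjusted p = 0.45). The summed level of the 3 genes was 43.3 to 47.9 FPKM in Dox and 84.3 to 99.6 FPKM in Cont, and ZFP36L1 had the highest level of the 3 in every library.

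Of the 12 other tested ZFP genes, 4 rose (33.3%), 4 fell (33.3%) and 4 did not pass the threshold. Over all tested genes, 37.6% were higher and 42.8% lower. The 4 that rose include ZFP14, which the filter bound to differ, as given below. ZFP41 was at 9.95, 9.64 and 8.09 FPKM in Dox and at 3.43, 3.41 and 3.63 FPKM in Cont (log2 change 1.18, SE 0.10, limma adjusted p = 1.98e-06), and 33.8% of its 50-base words occur in the gene model AC138696.1. ZFP69B was at 1.27, 2.42 and 2.55 FPKM in Dox and at 0.851, 0.72 and 1.03 FPKM in Cont (log2 change 0.70, limma adjusted p = 0.00412; 1.21 on the deposited log2 values; 0.35 with limma adjusted p = 0.115 under quantile normalization). Its neighbour ZFP69, within the same 46.2 kb of chromosome 1, was at 2.35 ± 0.625 FPKM in Dox and 2.25 ± 0.623 FPKM in Cont (SD, n = 3 each; limma adjusted p = 0.815).

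ZFP14 was at 1.14, 1.07 and 1.23 FPKM in Dox and at 0.684, 0.769 and 0.572 FPKM in Cont (log2 change 0.36, limma adjusted p = 0.0141). It passed the filter only through its Dox libraries, so it had to differ, and under quantile normalization it was at -0.03 (limma adjusted p = 0.845). ZFP82, its neighbour on chromosome 19, was at 7.81, 6.48 and 6.56 FPKM in Dox and at 9.23, 9.19 and 12.9 FPKM in Cont (log2 change -0.51, limma adjusted p = 0.00496; -0.27 with limma adjusted p = 0.12 in TPM with mitochondrially encoded genes left out).

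ZFP90, a KRAB gene among the highest members, was at 82.1, 77.6 and 83.5 FPKM in Dox and at 68.3, 67.8 and 75.7 FPKM in Cont. Its rise of 0.20 in log2 (limma adjusted p = 0.0241) ended without Dox replicate 1 (0.0728) or 3 (0.0572) or Cont replicate 1 (0.0906) or 2 (0.0919). ZFP30 was at 52.5 ± 3.16 FPKM in Dox and 50.1 ± 3.61 FPKM in Cont (SD, n = 3 each; limma adjusted p = 0.453).

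ZFP1 was at 3.52, 3.41 and 3.27 FPKM in Dox and at 5.80, 7.21 and 5.87 FPKM in Cont (log2 change -0.73, limma adjusted p = 9.77e-05). ZFP91, a ubiquitin ligase of the non-canonical NF-kB pathway, was at 12.9 ± 0.985 FPKM in Dox and 19.7 ± 0.596 FPKM in Cont (SD, n = 3 each; log2 change -0.57, limma adjusted p = 8.89e-05; -0.31 in TPM with mitochondrially encoded genes left out). Its longest transcript shares 31.6% of its 50-base words with other genes, nearly all with the read-through gene ZFP91-CNTF. ZFP64, a factor known to sustain transcription of the leukaemia gene KMT2A, fell by 0.33 (limma adjusted p = 0.0022) but was at -0.07 in TPM with mitochondrially encoded genes left out (limma adjusted p = 0.421). ZFP62 (limma adjusted p = 0.126) and ZFP92 (limma adjusted p = 0.0658) did not pass the threshold. ZFP62 was called lower without Cont replicate 3 (limma adjusted p = 0.0134). ZFP92 was called higher in 5 alternatives (limma adjusted p = 0.00854 to 0.0487), among them both TPM scalings and the fit without Cont replicate 3.

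Zinc finger genes of the same protein classes under other names were read from the same fit. Of 7 other BTB zinc finger genes, 4 were higher (57.1%) and 2 lower (28.6%), against 37.6% and 42.8% of all tested genes. BCL6, a germinal centre repressor and known FOXO target, had the largest rise, with 32.5 ± 3.36 FPKM in Dox and 2.22 ± 0.535 FPKM in Cont (SD, n = 3 each; log2 change 3.39). HIC1, a tumour suppressor gene, was 0.99 higher in log2, but it passed the filter only through its Dox libraries and so had to differ, while ZNF131 (-0.74) and PATZ1 (-0.51) fell. Without Dox replicate 1 or 2, 2 of the 6 then tested were higher. Of 20 other SCAN domain genes tested, 11 were higher and 4 lower (median log2 change 0.32), with rises of MZF1 (1.35) and ZNF445 (1.18) and falls of ZNF232 (-1.23) and ZNF263 (-0.63). Of the 39 tested SCAN domain genes under all names, 22 rose (56.4%) and 4 fell (10.3%), against 39.1% and 27.0% of the ZNF genes, which include many of them, and 37.6% and 42.8% of all tested genes. The 22 include ZNF396, which passed the filter only through its Dox libraries. The difference between these shares was not tested. Under quantile normalization 5 of 14 ZSCAN, 3 of 5 ZKSCAN and 9 of 20 other SCAN domain genes were higher, and 2, 0 and 4 lower. Of the 404 ZNF genes, 139 were then higher and 134 lower.

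Corepressor genes that these proteins use went both ways. Of 15 genes of the BTB corepressor complexes, 10 were lower and 3 higher (median log2 change -0.56), that is 66.7% lower, against 42.8% lower and 37.6% higher over all tested genes. BCOR was at 8.79 ± 0.892 FPKM in Dox and 37.4 ± 3.59 FPKM in Cont (SD, n = 3 each). NCOR1 rose by 0.78, SIN3B by 0.45 and TBL1XR1 by 0.26. HDAC3, the deacetylase of the NCOR complexes, was at 26.4 ± 1.17 FPKM in Dox and 28.4 ± 2.29 FPKM in Cont (SD, n = 3 each; limma adjusted p = 0.274).

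Of 14 genes of TRIM28 and its heterochromatin partners, 8 were lower (57.1%) and 3 higher (21.4%; median -0.66), against 42.8% and 37.6% of all tested genes. In TPM with mitochondrially encoded genes left out, 7 were lower and 6 higher. TRIM28 was at 625 ± 32.7 FPKM in Dox and 1869 ± 69.1 FPKM in Cont (SD, n = 3 each; log2 change -1.58, limma adjusted p = 3.22e-08). UHRF1, which guides DNA methylation after replication, had the largest fall (-3.45), and DNMT1 fell by 1.78. SETDB1 rose by 0.48 (limma adjusted p = 0.000394), MPHOSPH8 by 0.77 and SMARCAD1 by 0.54. Without Cont replicate 3, 5 of these genes were higher.

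Of 14 deadenylation and decay partners of the ZFP36 proteins, 7 were higher and 3 lower (21.4%; median 0.40), against 37.6% higher and 42.8% lower over all tested genes. Without Cont replicate 3, 5 were lower. The exonuclease gene XRN1 rose by 2.17 and the decapping cofactor gene DCP1A by 1.84, while CNOT9 fell by 1.04 and CNOT11 by 0.59. The scaffold gene CNOT1 was at 38.7 ± 1.28 FPKM in Dox and 42.1 ± 0.522 FPKM in Cont (SD, n = 3 each; limma adjusted p = 0.101).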

How the data were processed

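The table the authors deposited holds log2 FPKM of 13117 genes in 6 poly(A)-captured libraries, computed with a small offset. Per the submitters' processing notes, FastQC 0.11.7 and GRCh38 were used; the aligner, counting tool and annotation are not given in the sources used here. The first Cont sample's description names the column of the second, so titles were used to match columns; the groups are the same either way. FPKM was taken as 2 to the power of each value, and limma 3.58.1 (R 4.3.3) was run on log2(FPKM + 1) (moderated, with a mean-variance trend, two-sided, Benjamini-Hochberg adjustment over the 11526 genes that reached 1 FPKM in 3 libraries or more; threshold 0.05). The pseudocount understates changes of low genes. Fold changes are ratios of mean FPKM.

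Relative depth came from 307 genes whose lowest value recurred in 2 or more libraries and was read as 0 reads, by the size of the steps above it; read numbers are rough, since they rest on the longest GENCODE 29 transcript. Coordinates are from GENCODE 29 and promoters from RefSeq. Shared sequence is the percent of 50-base words of a member's longest transcript found on either strand in transcripts of other genes.

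Members and lists were chosen with earlier results of these data known. Genes named were 27 chosen members whatever their values, the 6 largest rises and falls per stem among called members with no overlap and a mean of at least 1 FPKM in the higher group, members not called, and the 2 largest rises and falls per partner list with members going against it; others are named to account for every member. ZBTB16, ZSCAN4, ZSCAN10, ZFP42 and ZFP57 were among the 27 and are not analysed here, and 1 gene of the partner lists that the rule names is not reported here. Alternatives were other pseudocounts, filters, scalings and moderation, the replicate number as a block, and leaving out each library.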

Additional observations from a re-analysis of the deposited data

How the results depend on the processing

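Of the 47 called members, 18 of 30 higher and 12 of 17 lower kept their call in every alternative fitted. Leaving out 1 library at a time gave 4 to 7 ZSCAN genes higher and 0 to 2 lower, 3 to 6 ZFP genes higher, 2 to 3 other BTB genes higher, 3 to 5 TRIM28 partners higher and 3 to 5 deadenylation partners lower; the median log2 change ran between 0.0162 and 0.14 over all members, 0.41 and 0.58 over ZKSCAN and -0.0609 and 0.11 over ZFP genes. With the filter at FPKM 5, 4 ZSCAN, 3 ZFP, 2 other BTB and 7 other SCAN genes were higher, and the ZFP median was -0.18. With no filter 1 ZSCAN gene was lower and the ZKSCAN median was 0.33. Median-of-ratios scaling gave 1 ZSCAN gene and 5 deadenylation partners lower, and moderation without a trend 1 ZSCAN gene lower. The ZKSCAN median was 0.62 with a pseudocount of 0.1 and 0.63 on the deposited values. In TPM the medians were 0.21 over all members, 0.0595 over ZBTB, 0.68 over ZKSCAN and 0.18 over ZFP genes, and 5 TRIM28 partners were higher. In TPM without mitochondrially encoded genes they were 0.37 over all members, 0.22 over ZBTB, 0.49 over ZSCAN, 0.82 over ZKSCAN and 0.34 over ZFP genes; 8 ZFP genes were higher and 3 lower, 2 other SCAN genes lower, 5 corepressor genes higher and 6 TRIM28 partners higher, and ZBTB1 (0.22, limma adjusted p = 0.011), ZBTB25 (0.0147) and ZSCAN25 (0.24, limma adjusted p = 0.0393) turned positive. Quantile normalization gave 2 ZSCAN genes lower, 5 TRIM28 partners higher, medians of 0.0398 over ZSCAN, 0.29 over ZKSCAN and -0.0251 over ZFP genes, and turned ZBTB46 (-0.26) and ZFP14 (-0.0251) negative. Members not called before were also called in TPM with those genes left out (ZBTB4, ZBTB41, ZSCAN22, ZFP30, ZFP36L2 and ZFP92 higher) and under quantile normalization (ZBTB26, ZBTB39, ZSCAN5A and ZSCAN12 lower, ZFP30 higher). The cause of these moves was not tested. Depth limits the lowest members most, since ZBTB32 rests on an estimated 2.07 to 57.9 reads.

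Replicate numbers are shared by the groups, but libraries of the same number did not deviate together (r = 0.0371, -0.00483 and 0.0793), and not every library correlated best with its own number, so they share a number only. With the replicate number as a block, 30 members were higher and 18 lower; ZBTB12 was no longer called (limma adjusted p = 0.0518), and ZFP92 became higher (0.0348) and ZBTB45 lower (0.0427).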
